A study of Equus caballus with 23 samples.

Results

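The slow fibre sarcomere filament genes are a listed set of 9: MYH7, MYH7B, MYL2, MYL3, MYL6B, TNNT1, TNNI1, TNNC1 and TPM3. The set is named for the thick and thin filament proteins of slow muscle fibres. Only RNA was counted, so whether each member gives protein in these fibres is not shown. They were found by symbol in the authors' tables, where each symbol had 1 gene identifier, so the set held 9 of the 26991 genes counted in the gluteus medius of Arabian horses. All 9 passed the filter on low counts and stood among the 11545 genes tested. RNA was sequenced from needle biopsies of this large hindquarter muscle in 23 libraries. The T0 group was 5 libraries from untrained horses of 2.5 years, with 3 males and 2 females. The T1 group was 8 libraries from horses of 3 years, with 4 of each sex, biopsied after a phase of intense gallops that comes before flat racing starts. The T2 group was 10 libraries from horses of 3 years, with 7 males and 3 females, at the end of the race season. Age differed between T0 and the other time points, so age and training cannot be told apart in comparisons with T0. Whether any horse gave more than 1 biopsy is not stated. Each p-value sets a difference between groups against the spread between libraries, taken as independent, which repeated horses would not be.

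Skeletal muscle contracts when myosin heads on the thick filament pull on the actin thin filament. A myosin heavy chain carries the motor and binds essential and regulatory light chains, and the heavy chain in a fibre largely sets how fast it shortens. On the thin filament, tropomyosin and the 3 troponin subunits switch contraction on and off with calcium. Slow fibres, which resist fatigue and rely on oxidative metabolism, use MYH7 and its own set of light chains, troponins and tropomyosin, whereas fast fibres use products of other genes for most of these roles. Several of the slow genes (MYH7, MYL2, MYL3 and TNNC1) are also used in the heart.

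Total counts ran from 12185608 to 23641809 per library, and members were counted deeply: summed over the 9 genes they took from 1.52% to 20.4% of the counts outside the mitochondrial genome. T1 library m3 stood apart before any comparison. It was the highest T1 library for all 9 members, which took 20.4% of its non-mitochondrial counts, whereas the other 7 T1 libraries gave 6.15% to 13%. Its fast fibre genes were low, with 83.9 CPM (counts per 1000000 of the scaled library) of the fast troponin T gene TNNT3 and between 1342 and 4916 CPM in the other T1 libraries. The tissue label was checked against 6 skeletal fibre markers (ACTA1, CKM, DES, MB, TTN and NEB), which were all counted and summed to 36126 CPM or more in every library. Of 7 cardiac markers only TNNI3 was found by symbol, at 0.450 to 7.36 CPM, so the levels of the others are not known. In such bulk tissue, fewer fibres of a type and less RNA per fibre cannot be told apart.

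MYH7, the slow heavy chain (ENSECAG00000019844, chromosome 1, 161506573 to 161527244, on the build of the authors' tables, not given in the sources used here), took 0.442% to 4.36% of all counts. In T0 it had 4947, 7654, 4039, 18933 and 5666 CPM in libraries m8, m9, m10, m12 and m13. Its lowest, median and highest values were 15834, 25549 and 66049 CPM in T1 and 4035, 5842 and 25919.5 CPM in T2. Only m12 in T0 and only m23 in T2 reached into the T1 range, so 9 of 10 T2 libraries lay below every T1 library. MYH7B, a heavy chain closely related to MYH7 (ENSECAG00000014246, chromosome 22, 25801921 to 25825189), had 39.1, 32.6, 30.4, 28.8 and 22.3 CPM in the same T0 libraries. Its lowest, median and highest values were 63.7, 110.1 and 204 CPM in T1 and 9.70, 41.2 and 97.9 CPM in T2. Unlike MYH7, it was not raised in m12, so no T0 library reached the T1 range, and its lowest value was that of T2 library m17.

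Light chains bind the neck of the myosin head. MYL2, the regulatory light chain (ENSECAG00000007867, chromosome 8, 21089435 to 21096156), had 1619, 1324, 1278, 3444 and 751 CPM in T0 libraries m8, m9, m10, m12 and m13. Its lowest, median and highest values were 3998, 5133 and 21559 CPM in T1 and 1422, 1950.4 and 4217 CPM in T2. All T1 libraries lay above all T0 libraries, and only m23 in T2 came into the T1 range. MYL3, the essential light chain (ENSECAG00000017410, chromosome 16, 39968273 to 39973952), had 474, 429, 381, 1033 and 276 CPM in the T0 libraries in the same order. Its lowest, median and highest values were 1415.8, 1685 and 6381 CPM in T1 and 477, 616 and 1415.6 CPM in T2. It was the only member for which T1 overlapped neither T0 nor T2, although the lowest T1 library (m4) and the highest T2 library (m23) were almost level. MYL6B, an alkali light chain that humans make in slow muscle and in non-muscle tissue (ENSECAG00000018230, chromosome 6, 73836664 to 73839202), had 17.5, 16.2, 14.9, 16.1 and 20.6 CPM in those T0 libraries. In T1 it had 365 CPM in m3, and the other 7 T1 libraries lay between 8.31 and 22.3 CPM. T2 libraries had 13.9 to 28.5 CPM with a median of 22.5 CPM. Outside m3 the 3 time points overlapped.

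The thin filament genes likewise had their highest medians in T1. TNNT1, the slow troponin T that anchors the complex to tropomyosin (ENSECAG00000015657, chromosome 10, 24355535 to 24365905), had 729.9, 796, 558, 2039 and 434 CPM in T0 libraries m8, m9, m10, m12 and m13. Its lowest, median and highest values were 1849, 2665 and 11201 CPM in T1 and 777, 1090.2 and 2733 CPM in T2. T0 library m12 lay above the lowest T1 library, and 8 of 10 T2 libraries lay below all of T1. TNNI1, the slow inhibitory subunit (ENSECAG00000016776, chromosome 30, 28463097 to 28467203), had 331, 280.2, 245, 744 and 346 CPM in the T0 libraries in that order. It ran from 895 to 4899 CPM in T1 (median 1399) and from 284 to 1171 CPM in T2 (median 364). All T1 values were above all T0 values, and m22 and m23 were the only T2 libraries in the T1 range. TNNC1, the calcium-binding subunit of slow and cardiac muscle (ENSECAG00000020452, chromosome 16, 35266443 to 35269197), had 1110.3, 986, 855, 3114 and 533 CPM in T0. It ran from 2622 to 15688 CPM in T1 (median 3641) and from 1129 to 3073 CPM in T2 (median 1849). Library m12 overlapped the lower T1 libraries here, leaving 5 of 8 T1 libraries above all of T0. TPM3, the slow alpha-tropomyosin, which also gives rise to non-muscle forms (ENSECAG00000010942, chromosome 5, 43504238 to 43521882), had 762, 729.8, 636, 1771 and 409.6 CPM in T0. It ran from 1891 to 7366 CPM in T1 (median 2484) and from 699 to 2572 CPM in T2 (median 1121). Every T1 library was above every T0 library, and 8 of 10 T2 libraries were below every T1 library.

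**Figure D1:**
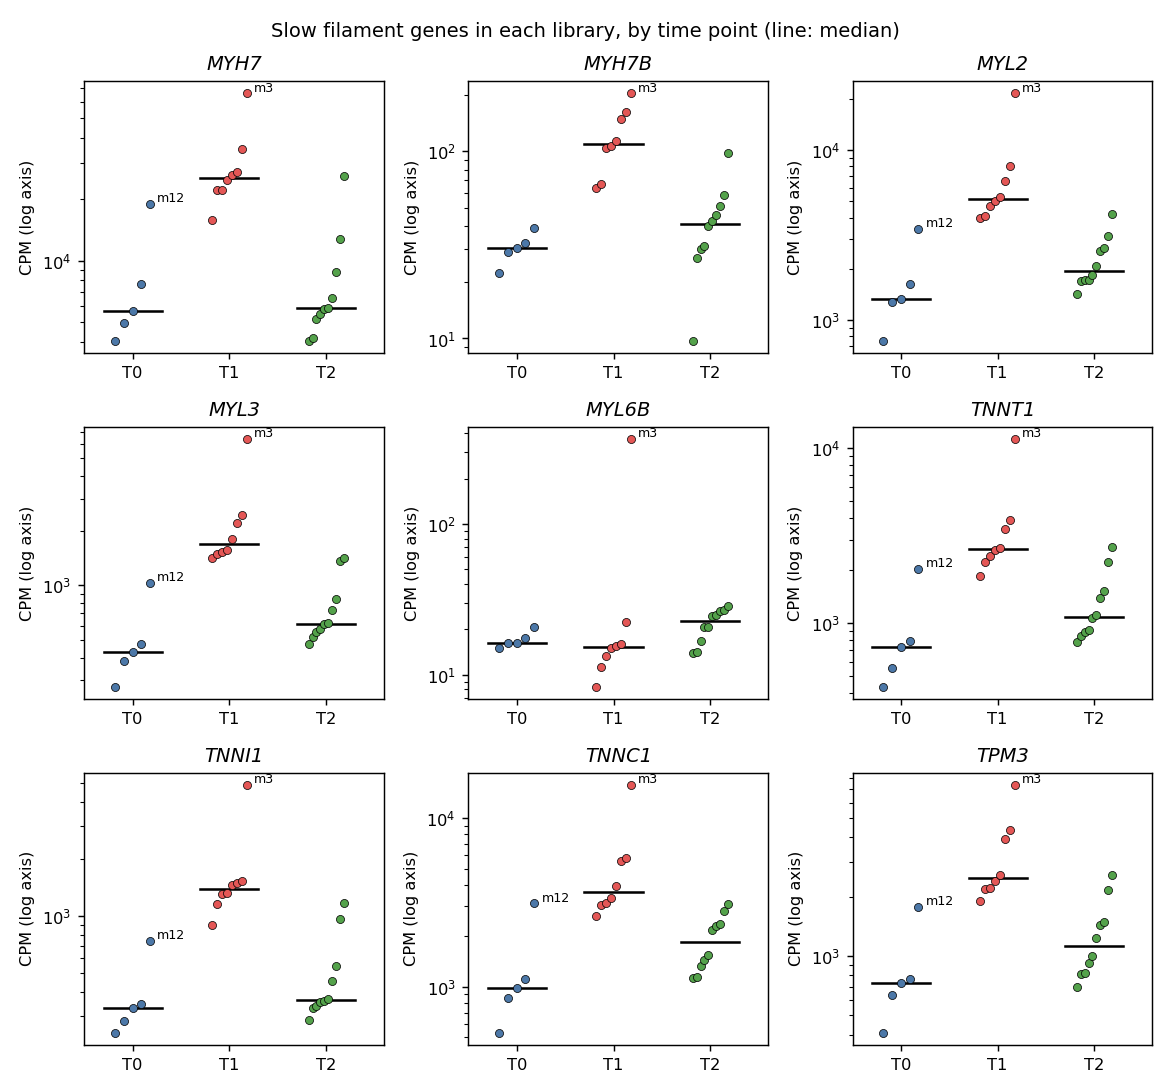
Level of each slow filament gene in CPM (log axis) in the 5 T0, 8 T1 and 10 T2 libraries, one point per library with a line at the median, with T1 library m3 and T0 library m12 named where they are the highest of their time point. The T1 median lies above both other medians for every gene but MYL6B, whose T1 values other than m3 run from 8.31 to 22.3 CPM.

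After the gallop phase, 8 of the 9 slow filament genes rose in T1 relative to T0 and 0 fell, in a comparison in which 3.57% of all tested genes rose (edgeR quasi-likelihood test, adjusted p below 0.05). Heavy chains, the regulatory and essential light chains, all 3 troponin subunits and tropomyosin rose by like amounts, with log2 fold changes from 1.86 to 2.18. The median log2 fold change of the 9 members was 2.03, beside -0.02 over all tested genes. MYL3 averaged 2352 ± 1669 CPM in T1 and 519 ± 297 CPM in T0 (SD, n = 8 and 5), which gave 2.18 ± 0.41 on the log2 scale (SE; adjusted p = 0.00332 was the smallest among the members). The log2 fold change of MYH7B was 1.98 ± 0.38 (adjusted p = 0.0039) and that of MYL2 2.14 ± 0.42 (adjusted p = 0.00396). On the thin filament the log2 fold changes were 2.18 ± 0.44 for TNNI1, 2.06 ± 0.46 for TNNT1, 2.03 ± 0.46 for TNNC1 and 1.96 ± 0.40 for TPM3 (SE, adjusted p 0.00462 to 0.00928). Groups did not overlap for 5 members (MYH7B, MYL2, MYL3, TNNI1 and TPM3), and 1.86% of tested genes had all T1 libraries above all T0 libraries.

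MYH7 averaged 29959 ± 15576 CPM in T1 and 8248 ± 6119.6 CPM in T0 (SD, n = 8 and 5), which gave 1.86 ± 0.48 on the log2 scale (SE; adjusted p = 0.0197 was the largest among called members). Its call ended without T0 library m8 (1.72, adjusted p = 0.0501), m10 (1.69, adjusted p = 0.0702) or m13 (1.75, adjusted p = 0.0518). MYL6B did not pass, at 1.76 ± 0.81 (SE, adjusted p = 0.205), and without library m3 its log2 fold change was -0.23 (adjusted p = 0.57). The other 8 members stayed called without m3, with log2 fold changes from 1.58 (TNNC1) to 1.85 (MYH7B), and the median of the 9 was then 1.69. Fibroblast markers moved with this comparison: 2 of 5 (COL3A1 and DCN) fell in T1, where the list summed to 64.5 to 164 CPM, against 89.5 to 382 CPM in T0. Of 7 smooth muscle and pericyte markers, LMOD1 and MYL9 fell, and the list summed to 147 to 212 CPM in T1 and to 163 to 542 CPM in T0. Over all tested genes 3.34% fell. The cardiac marker TNNI3 was called higher in T1 (log2 fold change 1.72, adjusted p = 0.0142), at 0.957 to 7.36 CPM in T1 and 0.450 to 1.70 CPM in T0. Of the 23 fits that left out 1 library, 9 ended the call of COL3A1, 8 that of DCN, 5 that of MYL9 and 1 that of TNNI3 (without T0 library m10). The part of these cells in the result was not tested.

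**Figure D2:**
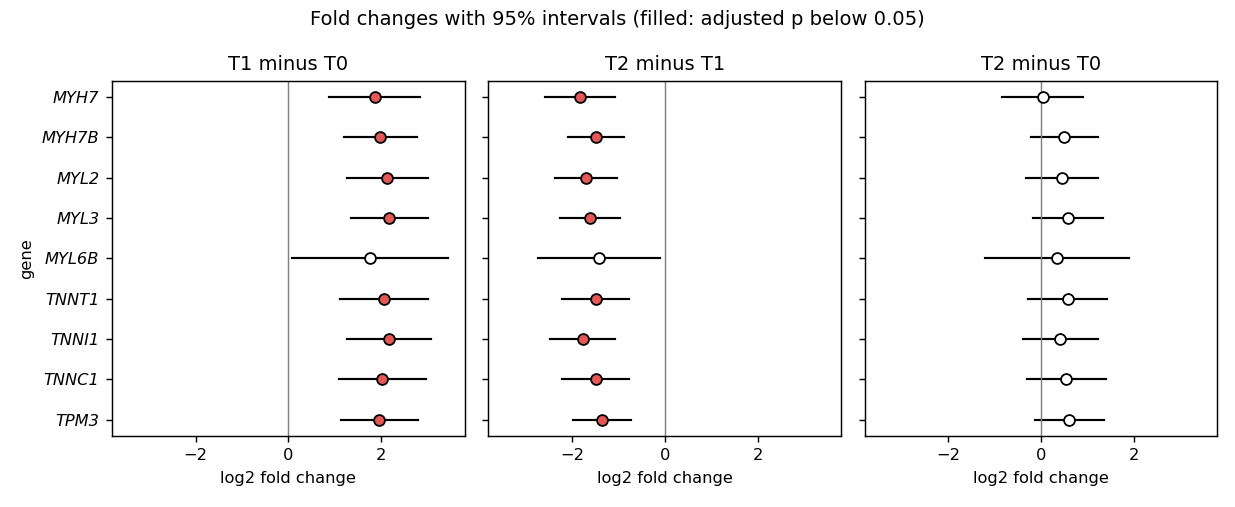
Log2 fold change of each member (edgeR) with its 95% interval for T1 minus T0, T2 minus T1 and T2 minus T0, filled where the adjusted p was below 0.05. The 8 called members sit between 1.86 and 2.18 in the first panel and between -1.83 and -1.35 in the second, and every interval in the third panel spans 0.

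At the end of the racing season the same 8 members fell in T2 relative to T1 and 0 rose, where 15.1% of all tested genes fell. The median log2 fold change of the members was -1.49, beside -0.01 over all tested genes. MYH7 averaged 8451 ± 6652 CPM in T2 and 29959 ± 15576 CPM in T1 (SD, n = 10 and 8), giving a log2 fold change of -1.83 with an SE of 0.37 (adjusted p = 0.000946). TNNI1 followed at -1.77 ± 0.34 (adjusted p = 0.000602), then MYL2 at -1.69 ± 0.32 (adjusted p = 0.000582) and MYL3 at -1.61 ± 0.31 (adjusted p = 0.000651). MYH7B, TNNT1 and TNNC1 had log2 fold changes of -1.48 ± 0.29, -1.49 ± 0.35 and -1.49 ± 0.35, and TPM3 had the smallest fall, at -1.35 ± 0.31 (SE, adjusted p 0.000843 to 0.00337). MYL3 was the single member without overlap, beside 1.45% of tested genes that had all T2 libraries below all T1 libraries. MYL6B did not pass, at -1.42 ± 0.63 (SE, adjusted p = 0.0975). Without m3 it was higher in T2 (log2 fold change 0.57, adjusted p = 0.0107), against the direction of the other 8, which stayed lower at -1.55 (MYH7) to -1.02 (TNNT1), and the median of the 9 was then -1.21. Of the 6 skeletal fibre markers, 2 fell and 0 rose in T2. That list summed to 37394 to 75832 CPM in T2 and to 62515 to 106540 CPM in T1. Markers of other cells moved here too. Of the 7 smooth muscle and pericyte markers, LMOD1 and MYL9 rose and RGS5 and SMTN fell in T2, beside 12.6% and 15.1% of all tested genes. The list summed to 156 to 268 CPM in T2 and to 147 to 212 CPM in T1. Of 2 blood markers with counts PTPRC fell, and the pair summed to 2.98 to 5.66 CPM in T2 and to 3.33 to 11.6 CPM in T1. TNNI3 fell as well (-1.07, adjusted p = 0.0143), at 0.824 to 1.94 CPM in T2. Fits that left out 1 library ended the call of MYL9 in 11 of 23 and that of PTPRC in 2 (without T1 library m1 or m11). The part of these other cells in the fall was not tested.

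Between the end of the season and the untrained state, the slow filament genes were not separated. None of the 9 was called for T2 minus T0, 0 of 9 had an unadjusted p under 0.05, and 16% of all tested genes were called in either direction (6.73% higher and 9.3% lower in T2). At an unadjusted p under 0.05, 32.1% of all tested genes would have passed. For no member did the T2 libraries separate from the T0 libraries, as 0.944% of all genes did upward and 1.72% downward. All 9 log2 fold changes were positive, from 0.04 for MYH7 (95% interval -0.84 to 0.91) to 0.61 for TPM3 (-0.14 to 1.36), with a median of 0.50 beside -0.03 over all tested genes. MYH7 averaged 8451 ± 6652 CPM in T2 and 8248 ± 6119.6 CPM in T0 (SD, n = 10 and 5). TNNC1 averaged 1923 ± 702 CPM in T2 and 1319.7 ± 1026 CPM in T0 (log2 fold change 0.54, 95% interval -0.31 to 1.39). All 10 T2 libraries lay above the T0 median for MYL2, MYL3, TNNT1 and TNNC1, and 6 of 10 did for MYH7. T0 library m12 was the highest T0 library for 7 members. Without it TNNC1 (1.15, adjusted p = 0.0483) and TPM3 (1.06, adjusted p = 0.0448) were called higher in T2. That fit called 2414 of 11711 genes in either direction, and 2 of 9 members is near such a share. Without m3 and m12 5 members were called higher, beside 2947 of 11700 genes called in either direction. MYH7 was not called in any fit made. With limma voom and sample weights, 4 members were called higher in T2 (MYL3, TNNT1, TNNC1 and TPM3), at log2 fold changes of 0.79 to 0.90. That method called 2940 of 11545 genes in either direction. The order of levels was thus T1 above T0 and T2 for the 8 called members, with T0 and T2 not told apart in the edgeR fit of all libraries.

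The members were also set against MYH7 within each library. For the 7 members other than MYL6B, the mean log2 ratio to MYH7 was higher in T2 than in T1 by 0.22 (TNNI1) to 0.65 (TNNC1), and T1 and T0 differed by -0.07 (MYH7B) to 0.16 (MYL3). All of these ratios share MYH7, which had the largest fall of the members from T1 to T2 (log2 fold change -1.83). The 7 higher ratios are thus not separate results. The 3 with the largest difference between T2 and T1 are given here, chosen after their values were seen. The log2 ratio of TNNC1 to MYH7 averaged -2.67 ± 0.52 in T0, -2.61 ± 0.31 in T1 and -1.96 ± 0.58 in T2 (SD, n = 5, 8 and 10). For TNNT1 it was -3.16, -3.11 and -2.51, and for TPM3 -3.19, -3.18 and -2.55. MYL6B departed from them, with means of -8.68 in T0, -10.35 in T1 and -8.39 in T2. The ranges overlapped: for TNNC1 they were -3.08 to -1.34 in T2 and -2.98 to -2.07 in T1. These ratios were not tested.

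For 7 of the 9 members a fast counterpart in the same role was listed (MYH7B and MYL6B had none), and the ratio of the 2 counts within a library does not depend on library scaling. The fast counterpart of MYH7 was taken as the sum of the pair of identifiers named MYH2 (ENSECAG00000022909 and ENSECAG00000024667), close paralogs between which the division of short reads is uncertain, and MYH1 and MYH4 had no identifier. For MYH7 to MYH2 the log2 ratio was -0.67 to 7.46 in T1 (median -0.09) and -3.27 to -1.13 in T0 (median -2.32). For TNNI1 to TNNI2, the inhibitory subunits, it was -1.35 to 5.58 in T1 (median -0.45) and -3.56 to -2.23 in T0 (median -3.12). For all 7 pairs every T1 library lay above every T0 library, and the means differed by 3.29 (TNNC1 to TNNC2) to 3.65 (TNNT1 to TNNT3) on the log2 scale. Library m3 carried part of these differences: without it they were 2.56 (MYH7 to MYH2) to 2.97 (MYL3 to MYL1).

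At T2 the ratios were lower than in T1 and overlapped those of T0. MYL3 to MYL1, the essential light chains, had log2 ratios of -4.31 to -1.68 in T2 (median -3.17), against -1.12 to 4.68 in T1 (median -0.69). MYL2 to MYLPF, the regulatory light chains, had -2.51 to -0.12 in T2 and 0.07 to 6.63 in T1. The time points did not overlap for 5 of 7 pairs, and 9 of 10 T2 libraries lay below all T1 libraries for MYH7 to MYH2 and for TPM3 to TPM1. The means differed by -3.23 to -2.68 between T2 and T1 and by 0.25 to 0.61 between T2 and T0, where all 7 pairs overlapped. Without m3 the differences between T2 and T1 were -2.49 (MYL3 to MYL1) to -2.01 (TNNC1 to TNNC2). Library m3 had the highest ratio in all 7 pairs, and m17 the lowest T2 ratio in 6 of them. These ratios are descriptions without a test, and the same ratios for other pairs of genes were not computed.

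**Figure D3:**
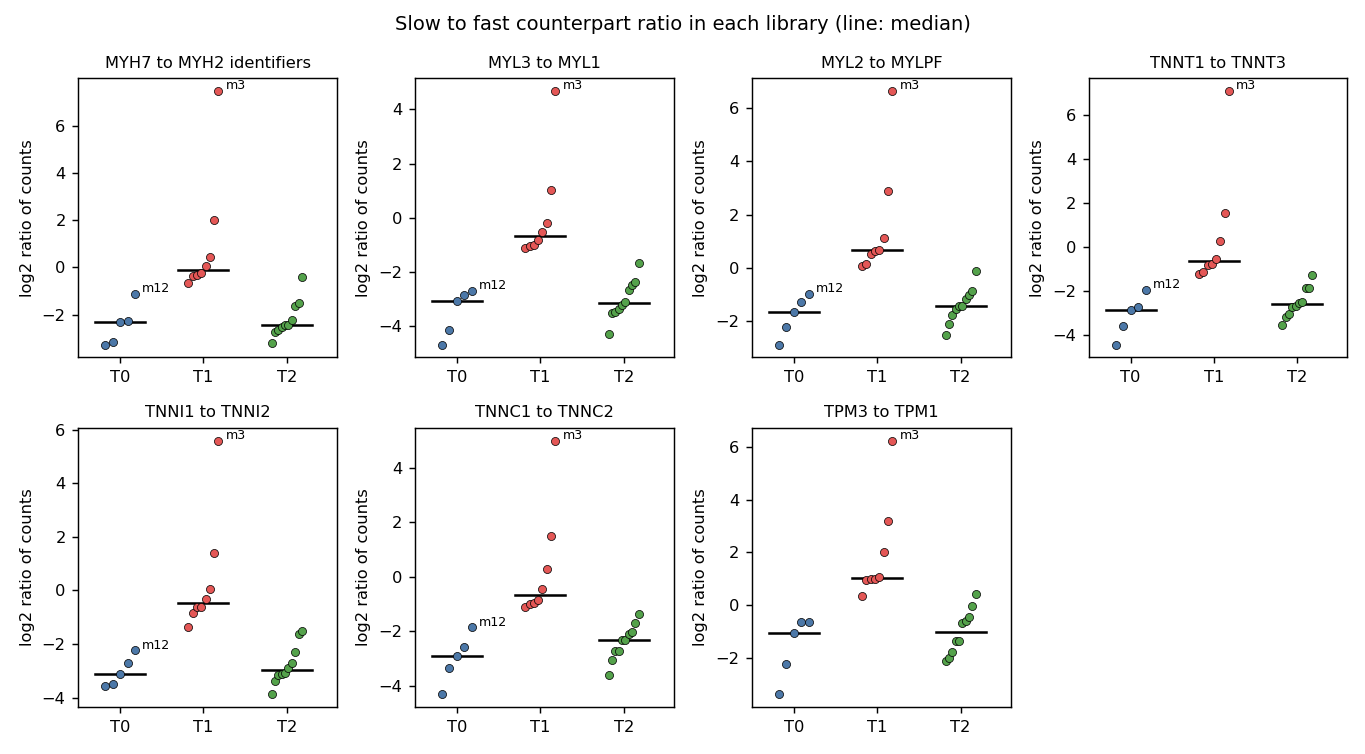
Log2 ratio of the count of each slow filament gene to that of its fast counterpart in every library by time point, with a line at the median. All 8 T1 points lie above all 5 T0 points in each panel, and T1 library m3 reaches 7.46 for MYH7 to the MYH2 identifiers.

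Among the fast filament genes themselves, 10 identifiers (9 of 11 listed symbols) were tested, and 4 fell and 0 rose in T1 relative to T0 (median log2 fold change -1.16; 3.34% of all genes fell). They were the MYH2 identifier ENSECAG00000022909 (-3.42 ± 0.64, adjusted p = 0.00364), the Z-disc protein gene ACTN3 (-1.67 ± 0.42, adjusted p = 0.018), TPM1 (-1.40 ± 0.39, adjusted p = 0.0303) and MYL1 (-1.24 ± 0.37, adjusted p = 0.0415). The other MYH2 identifier, ENSECAG00000024667, was not among them. It averaged 16559 CPM in T0, 18658 CPM in T1 and 18633 CPM in T2, where ENSECAG00000022909 averaged 22375, 2086 and 14985 CPM. The fall was thus that of 1 identifier of the pair. Without T0 library m10 or T1 library m11 the count was 2, without T0 library m13 it was 1, and without m3 it was 6. It was also 2 with no filter on low counts and 1 with only T1 and T0 in the fit. The MYL1 call ended in these fits other than that without m3, and also without T1 library m2 or m7 or T0 library m12 (adjusted p 0.0536 to 0.074). In T2 relative to T1, 9 of the 10 rose (median 1.19; 12.6% of all genes rose), and for T2 minus T0 none was called (median 0.10).

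Over libraries pooled from all time points, most members also varied together. No correlation was computed inside a single time point. With the time point mean subtracted from log2 CPM, the 7 members other than MYH7B and MYL6B had Pearson correlations of 0.79 to 0.97 in their 21 pairs over 23 libraries (median 0.93), and 0.75 to 0.96 without m3. The closest pairs included MYL3 with TNNT1 (0.97). MYH7 was closest to TNNT1 (0.89) and less close to TNNC1 (0.79). MYH7B had a median correlation of 0.44 with the other members, and MYL6B of 0.53, which became -0.07 without m3, when all 8 of its correlations lay between -0.46 and -0.03. These values are descriptions over the pooled libraries, and library scaling moves all genes of a library alike.

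**Figure D4:**
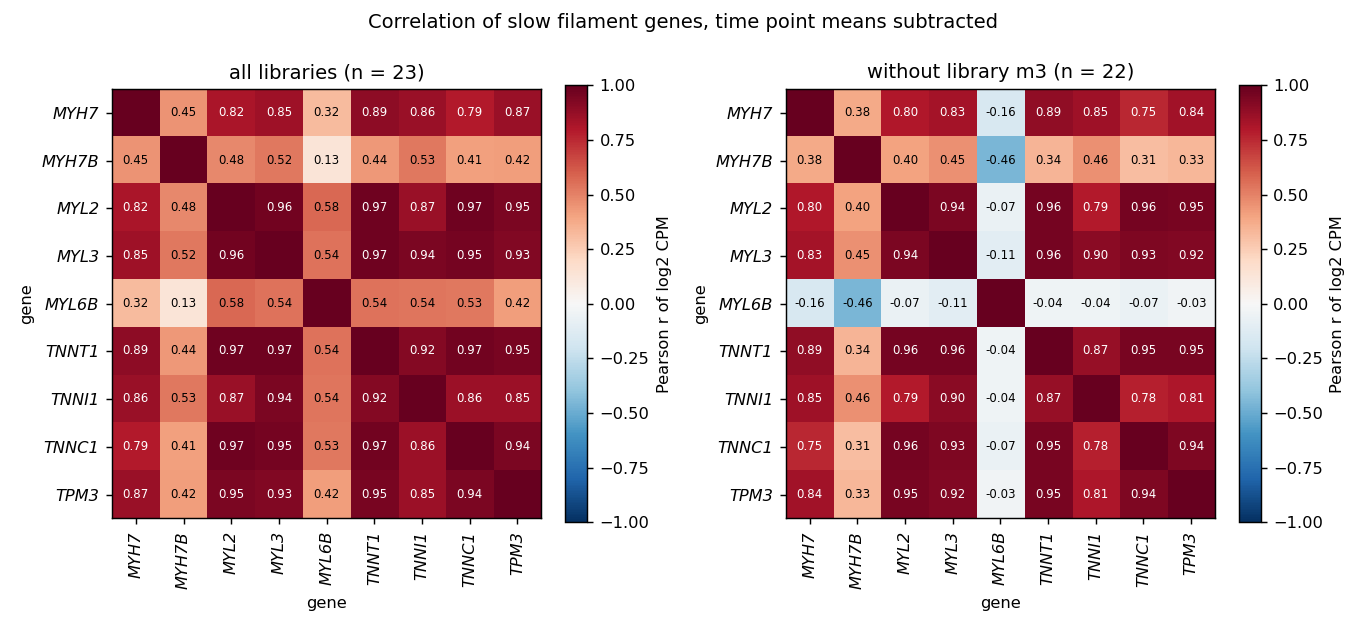
Pearson correlation of log2 CPM between members after subtracting time point means, over all 23 libraries and over 22 libraries without m3. The block of 7 genes stays between 0.75 and 0.96 without m3, whereas every correlation of MYL6B is then below 0.

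The libraries could be ordered by the mean z score of the 9 genes (log2 CPM scaled over all 23 libraries). In T0 the score was -1.30 in m13, -1.09 in m10, -0.85 in m9, -0.79 in m8 and 0.12 in m12. In T1 it ran from 0.26 in m4 to 1.18 in m11 and 2.61 in m3. In T2 it ran from -0.80 in m17 to 0.33 in m22 and 0.54 in m23. A single T0 library and a pair of T2 libraries thus stood near the lower end of T1. MYH7B broke the pattern in m17, where its z score was -2.28 and that of TNNT1 -0.51. MYL6B broke it in several T2 libraries: among these its z score was highest in m17 (0.50) and was -0.50 in m23, the library in which the other members were high. In m15 (-0.27), m20 (-0.53) and m22 (0.40) its sign was that of the mean score.

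**Figure D5:**
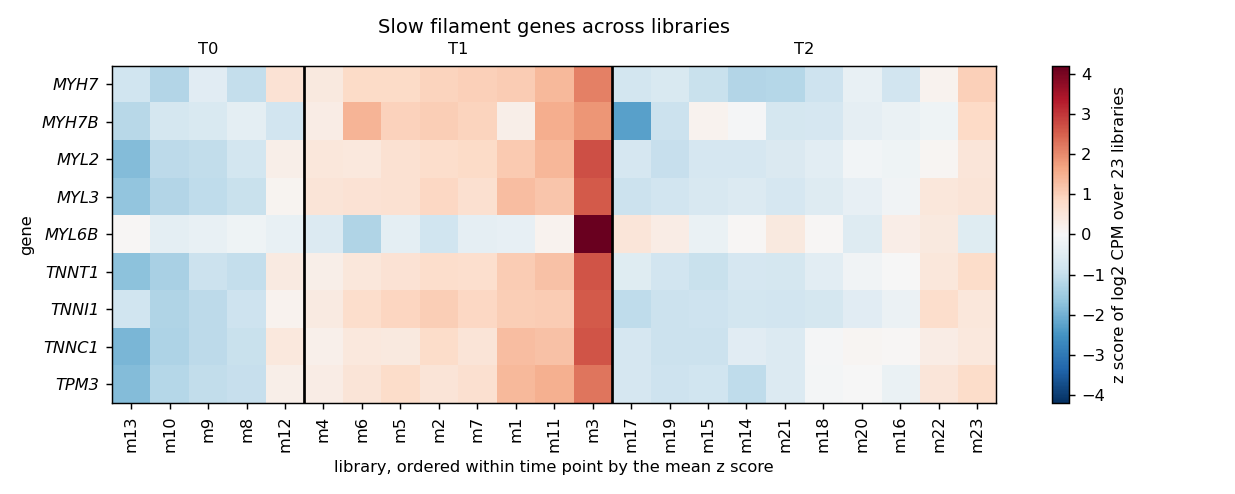
Z score of log2 CPM over the 23 libraries for each member, with libraries ordered within T0, T1 and T2 by their mean z score. T1 library m3 is the highest for all 9 genes, T0 library m12 and T2 libraries m22 and m23 resemble the lower T1 libraries, and MYL6B departs from the other rows.

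The authors' annotation listed 1 transcript for 8 of the members and 3 for MYH7. A match by symbol found 9 transcripts, 1 per member. The one found for MYH7, MYH7-203, took 99.1% or more of the gene's count in every library. The transcript counts were thus nearly the gene counts, and their test is no separate support. Tested among 12334 transcripts, 8 of 9 rose in T1 (4.98% of all transcripts were called in either direction), 8 of 9 fell in T2 relative to T1 (23.9% called), and 0 were called for T2 minus T0 (12.4% called). An unnamed protein-coding gene (ENSECAG00000021104, chromosome 1, 161476365 to 161501208) lies 5364 bases from MYH7. Its level ran from 11.4 CPM in m11 to 879 CPM in m23. Its count was 0.0325% of the MYH7 count in m11 and 0.0869% in m3, while in the other 21 libraries it was 1.14% to 5.26%. It was not called in any comparison (log2 fold change 0.98, adjusted p = 0.49 for T1 minus T0). The difference between its fold change and that of MYH7 was not tested.

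Sex was recorded for each library, and 7 of the 9 members averaged less in females than in males at each time point, but no difference passed correction. With time point in the model, 0 of 9 members were called for female minus male, as were 0 of all 11545 genes, by edgeR, and DESeq2 called 0 members. At an unadjusted p under 0.05, 7 of the 9 were lower in females, with log2 fold changes of -0.92 to -0.74, and 2.9% of all genes met the same mark. These 7 are the genes that varied together over libraries, so they are not separate results. Libraries m12, m3 and m23, with the highest mean z score of T0, T1 and T2, were from males. Second in T1 came m11, from a female, and second in T2 m22, from a male. TNNC1 averaged 3805 ± 1281 CPM in T1 females and 6965 ± 5945 CPM in T1 males (SD, n = 4 each), with m3 among the males. In T2 it averaged 1297 ± 157 CPM in females and 2191 ± 671 CPM in males (SD, n = 3 and 7), and in T0 694 ± 227 CPM in females and 1737 ± 1194 CPM in males (SD, n = 2 and 3). Its log2 fold change was -0.92 ± 0.27 (SE, unadjusted p = 0.00235, adjusted p = 0.615). MYH7B (-0.27 ± 0.28) and MYL6B (-0.85 ± 0.59) were the other 2. For the difference between T2 and T1 in females minus that in males, 0 of 9 members and 0 of all genes were called. MYL6B had an unadjusted p of 0.00973 there (log2 difference 3.11) and did not pass after adjustment, with m3 among the T1 males. With sex as a covariate the counts of members called stayed at 8, 8 and 0.

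Other genes of slow fibres were then counted. Of 13 tested genes of slow fibre calcium handling, fuel use and stretch response, 8 rose and 0 fell in T1 relative to T0 (median log2 fold change 1.43; 3.57% of all genes rose). ANKRD2, a stretch-responsive ankyrin repeat protein, rose by 2.91 ± 0.50 (SE, adjusted p = 0.00204), LDHB, the heart-type lactate dehydrogenase subunit, by 2.32 ± 0.44 (adjusted p = 0.00367) and PLN, which restrains the slow calcium pump, by 1.85 ± 0.36 (adjusted p = 0.00397). The count was 5 without T0 library m10 and with only T1 and T0 in the fit. In T2 relative to T1, 9 fell and 0 rose (median -0.97; 15.1% of all genes fell), led by PLN (-1.67 ± 0.28, adjusted p = 0.000213), the slow calcium pump ATP2A2 (-1.46 ± 0.26, adjusted p = 0.000293) and the Z-disc protein MYOZ2 (-3.13 ± 0.63, adjusted p = 0.00117). The count of 9 was 6 without m3. For T2 minus T0 only ANKRD2 was called, higher in T2 as were 6.73% of all genes (1.32 ± 0.45, adjusted p = 0.0476), and its call ended in 17 of the 23 fits that left out 1 library (adjusted p 0.0504 to 0.126 in those fits).

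Filament genes used more widely than in slow fibres were also counted. Of 14 tested, 3 rose in T1 relative to T0 and 1 fell (median log2 fold change 0.25), beside 3.57% and 3.34% of all genes, and 1 of 14 is near such a share. LMOD2, a nucleator of actin filaments, rose by 1.88 ± 0.34 (SE, adjusted p = 0.00256), the Z-disc alpha-actinin ACTN2 by 1.15 ± 0.23 (adjusted p = 0.00397) and MYBPC1, the slow myosin-binding protein C, by 0.87 ± 0.25 (adjusted p = 0.0367). TMOD1, which caps thin filament ends, fell, at -0.55 ± 0.13 (adjusted p = 0.0111), a call that ended without T0 library m13. In T2 relative to T1, 6 fell and 1 rose (median -0.42), beside 15.1% and 12.6% of all genes. Among those that fell were ACTN2 (-0.97 ± 0.18, adjusted p = 0.000485) and NEB, the thin filament ruler (-0.63 ± 0.15, adjusted p = 0.00294). TMOD1 was the gene that rose (0.32 ± 0.11, adjusted p = 0.0295), and the count of 1 was 0 with no filter on low counts and without T1 library m4 or T2 library m17 or m19, and 2 without T1 library m3, T0 library m12 or T2 library m14, m15 or m21, with limma voom and with DESeq2. The skeletal actin gene ACTA1, a partner of all these proteins, had log2 fold changes of 0.28 for T1 minus T0 (adjusted p = 0.537) and -0.16 for T2 minus T1 (adjusted p = 0.561).

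Of 18 tested regulators linked to the slow programme in mice, 1 rose and 1 fell in T1 relative to T0 (median log2 fold change 0.09), a share near the 3.57% and 3.34% of all genes. ESRRB, an orphan nuclear receptor, rose by 1.21 ± 0.26 (SE, adjusted p = 0.00528), and SOX6, a repressor of slow genes in mouse muscle, fell, at -0.82 ± 0.24 (adjusted p = 0.0417). The SOX6 call ended without any 1 of T1 libraries m1, m2, m7 and m11 or T0 libraries m9, m10, m12 and m13. In T2 relative to T1, 6 fell and 0 rose (median -0.21; 15.1% of all genes fell): ESRRB (-1.56 ± 0.21, adjusted p = 1.54e-05), PPARA (-1.69 ± 0.22, adjusted p = 1.72e-05), TEAD1 (-0.98 ± 0.16, adjusted p = 9.47e-05), MEF2D, ESRRG and MEF2A. For T2 minus T0 the nuclear receptor PPARA (-0.90 ± 0.25), TEAD1 (-0.84 ± 0.18) and MEF2A (-0.52 ± 0.15) were lower in T2, as were 9.3% of all genes (adjusted p 0.00501 to 0.0222), a time at which none of the 9 filament members was called. Without T0 library m9 or m13 the count of 3 was 2. Of 4 developmental and extraocular heavy chains listed (MYH3, MYH8, MYH13 and MYH15), none had an identifier in the tables used.

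The genes whose levels were most like the mean of the members, with time point means subtracted over 23 libraries, were ranked among 8833 other genes with a symbol. ACSF2, an acyl-CoA synthetase, had the highest Pearson correlation (0.93), followed by the stress kinase MAPK12 (0.91), the actin-associated PDLIM1 (0.89), PLN (0.89), ARMC2 (0.86), LDHB (0.85), the actin-nucleating complex subunit ARPC1A (0.85) and the mitochondrial deacylase SIRT5 (0.84). Without m3, 5 of these 8 stayed among the first 8 and all 8 among the first 50. Their fold changes between time points took no part in this ranking. In T1 relative to T0, 7 of them were called higher, beside 3.57% of all tested genes, and ARMC2 was not (2.16, adjusted p = 0.095). In T2 relative to T1, 7 were called lower, beside 15.1% of all tested genes, and ARPC1A was not (-0.34, adjusted p = 0.0687). PDLIM1, PLN and LDHB were also among the other slow fibre genes counted above. Of the fits that left out 1 library, 15 ended the T1 call of ARPC1A, 6 that of PDLIM1 and 2 that of ACSF2, and 8 ended the T2 call of ARMC2 and 2 that of PDLIM1. MAPK12 had log2 fold changes of 0.93 and -0.61 in these comparisons (adjusted p = 0.0055 and 0.00547), smaller than those of any called member.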

How the data were processed

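Sequencing of the biopsies used 50 cycles in 6 technical repetitions, per the labels; the way repetitions were combined was not given in the sources used here. FastQC, STAR, RSEM and DESeq2 appear, with no version, in the submitters' processing notes. Expected counts of genes and transcripts were deposited as tables with 1 column for each library, per the file headers, and all values were whole numbers. The authors also deposited comparison tables whose columns hold, per the file headers, a mean normalized signal, a log2 fold change with its error, a test statistic (score) and a p-value. Their groups are letters that the sources used here do not tie to time points, so only identifiers, symbols and coordinates were taken from them. No pair of libraries was identical.

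Genes were kept by edgeR's filterByExpr (minimum count 10, minimum total 15), scaled by TMM, and 1 model held all 3 time points in edgeR 4.0.16 and R 4.3.3 (robust quasi-likelihood F test, two-sided, Benjamini-Hochberg over all genes tested, threshold 0.05). CPM used TMM-scaled library sizes, and log2 CPM a prior count of 2. The filter left 11545 genes, and total counts of 12185608 to 23641809 per library add counting error to the spread between libraries. The test was also run on simulated counts drawn with the fitted spread of each gene. These held no outlying library such as m3 and no repeated horses, so that check does not cover them. The text names all members, the fast counterparts, up to 3 called genes with the smallest p per list and comparison (counts of 5 or fewer are named in full), and the 8 genes most like the members. ACTA1 was added after its values were seen. The values of 1 other gene that this rule would name are not reported here. Members and lists were chosen with earlier results of these data known. Alternatives were median ratio factors, mitochondrial genes removed, no filter, DESeq2 1.42.0, limma 3.58.1 voom, sex as a covariate, 2 time points per fit, a fit that was not robust, each library left out, and, added after seeing the data, m3 and m12 left out and slow to fast ratios without m3. No sequences or genome were used here.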

Additional observations from a re-analysis of the deposited data

Results flagged for a closer look

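In T1, library m3 was far above the other 7 T1 libraries for 6 of the 9 members on the log2 CPM scale. The gap between m3 and the next library, as a share of the whole T1 range, was 0.741 for MYL6B, 0.686 for TNNI1, 0.640 for MYL3, 0.592 for TNNT1, 0.582 for MYL2 and 0.557 for TNNC1, all above the critical value of 0.526 for 8 samples. The 9 members in 3 time points gave 27 groups and these 6 results. Chance alone gives such a gap in about 1 of 20 groups, and the 6 are not independent, since they come from 1 library and from genes that vary together.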

How the results depend on the processing

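The counts of members called were 8, 8 and 0 for T1 minus T0, T2 minus T1 and T2 minus T0. Leaving out each library in turn gave 7 to 8, 8 to 9 and 0 to 2, and 0 to 0 for female minus male. For T2 minus T0 the count was 4 with limma voom, 2 without T0 library m12 and 5 without m3 and m12. Those fits called 2940 of 11545, 2414 of 11711 and 2947 of 11700 genes in either direction. For T2 minus T1 the count was 9 with DESeq2, without m3, and without m3 and m12. MYL6B was the ninth and was higher in T2. These fits called 3511 of 11545, 3775 of 11520 and 3957 of 11700 genes in either direction. The T1 minus T0 sign of MYL6B reversed with limma voom (-0.12), DESeq2 (-0.18), without m3 (-0.23) and without m3 and m12 (-0.24). Its T2 minus T1 sign reversed in the same 4 settings (0.49, 0.54, 0.57 and 0.58). MYH7 for T2 minus T0 (0.04) reversed with sex as a covariate (-0.019) and without 1 of T0 libraries m8, m10 and m13 or T2 libraries m22 and m23. Over all fits that left out 1 library, MYL6B ran from -0.23 to 1.93 for T1 minus T0 and from -1.59 to 0.57 for T2 minus T1, and MYH7 from -0.34 to 0.60 for T2 minus T0. The cause was not tested. No paired analysis was possible because the labels number the libraries and do not say which horse each came from.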
